A study of Schizosaccharomyces pombe with 6 samples.

Results

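The non-coding RNAs of fission yeast (Schizosaccharomyces pombe) that are annotated as neither antisense nor intergenic were compared between cells with a duf89 deletion and WT cells. They were taken as the features with an SPNCRNA identifier whose deposited product description holds neither word, with at least 10 raw counts in 3 or more of the 6 libraries. Of 401 such identifiers among 6986 genes, 72 met the count rule and 329 did not, 168 of them with no counts in any library. The set is therefore defined by its level, and not by a difference between the strains. One RNA, SPNCRNA.155, reached 10 counts in WT libraries only, so for it values are given and no test. All 72 entered the test, and 52 of them had at least 10 counts in each library.

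The deletion group was strain AS2300 (genotype h- duf89delta::hygR, the gene replaced by a hygromycin resistance marker), with 3 libraries labelled as biological replicates. The WT group was strain JS 77, with 3 numbered libraries and no mating type in the labels. Both were grown at 30 ºC in YES (Yeast Extract Supplemented) medium and sampled in log phase, and polyadenylated RNA was sequenced from stranded paired-end libraries. The WT libraries had first been deposited with another series, although they were sequenced alongside the mutant, so preparation and genotype cannot be told apart. Each group is 1 strain. The WT labels do not say whether its libraries came from separate cultures, so p-values measure the spread between these libraries, which may be technical in part.

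Non-coding RNAs of this class fall into several kinds in fission yeast. Some are structural RNAs of enzymes and ribonucleoproteins, such as those of RNase MRP, RNase P, telomerase and the signal recognition particle. Others are polyadenylated long RNAs, and a few of these are bound by Mmi1, a protein that recognises meiotic RNAs in growing cells and directs them to the nuclear exosome for decay. Transcription of some long non-coding RNAs also represses the gene that lies downstream, and the position at which that transcription stops decides whether the gene is silenced. The study addressed Duf89 in this form of control at the phosphate genes.

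Library totals lay between 18244492 and 21572536 counts. The deleted gene itself averaged 13.2 ± 3.89 CPM in the deletion and 44.3 ± 2.12 CPM in WT (SD, n = 3 each), and was called lower (log2 fold change -1.74, SE 0.16, adjusted p = 6.6e-05). It was still read at 229, 234 and 373 counts in the deletion libraries, against 808, 897 and 794 in WT. The source of the reads in the deletion was not tested. CPM are counts scaled to a common library size by trimmed means, and every log2 fold change below is deletion over WT. The deletion libraries held 849, 862 and 1164 nuclear rRNA counts, against 9973, 11464 and 9005 in WT. Mitochondrial features were listed at 0 in each deletion library, against 2064, 2920 and 1813 counts in WT. All cells use these genes, and the sources used here do not say whether the counts of both groups were made in the same way. A difference in how the counts were made and the genotype therefore cannot be told apart in any comparison below.

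The 72 RNAs were mostly rare. Their median mean count was 26.7 per library, against 1137 over all tested genes, and 48 of them averaged under 50 counts. The median SE of a log2 fold change was 0.26 for these RNAs and 0.08 for all genes. A single RNA, prl53, a polyadenylated RNA of unknown role, made up 89.9% to 94.0% of all counts of the set in each library. Its levels were 3857, 3639 and 4359 CPM in the deletion libraries, against 4210, 3434 and 3505 CPM in WT. The groups overlapped, and no difference was called (log2 fold change 0.09, SE 0.09, adjusted p = 0.41). It passed as higher with cyclic loess (0.27, adjusted p = 0.038) and without WT replicate 1 (0.19, adjusted p = 0.049). In the RefSeq annotation prl53 overlaps SPAC27E2.11c on the same strand, so the division of reads between these features is uncertain. The other 71 RNAs together held 311, 306 and 277 CPM in the deletion libraries, against 353, 384 and 356 CPM in WT. Every deletion library was lower than every WT library in this sum. A large part of it was SPNCRNA.388, at a mean of 95.3 CPM in the deletion and 131 CPM in WT. Without SPNCRNA.388 and prl1, the next most abundant RNAs, the rest held 157, 155 and 174 CPM in the deletion libraries. In WT the rest held 179, 212 and 194 CPM. In bulk RNA, fewer cells that hold an RNA and less of it per cell cannot be told apart.

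A call was made where the adjusted p lay under 0.05, and it was reached by 18 of the 72 RNAs (25%), against 53.3% of all genes. In the deletion 16 were lower, 15 of them without SPNCRNA.155, and 2 were higher. With SPNCRNA.155 included these were 22.2% and 2.78% of the set, against 24.6% called lower and 28.8% called higher among all 6045 tested genes. The share called lower was thus near that of all genes, whereas the share called higher was below it. Among the 1090 tested genes in the same range of counts, 31.9% were called, 22.8% lower and 9.17% higher. The 57 RNAs of the set in that range had 22.8% called, 21.1% lower and 1.75% higher. That range is the 10th to the 90th percentile of the set's mean counts. The median log2 fold change of the set was -0.24 (quartiles -0.58 and 0.15), against 0.00 for all genes and -0.17 for genes in that range of counts. Values below 0 were found for 46 RNAs (63.9%), against 49.9% of all genes. In the shared range of counts the share was 63.2% for the set and 61% for all genes. At an unadjusted p below 0.05 there were 19 lower, SPNCRNA.155 among them, and 2 higher. The share of all genes at that level was not counted.

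Calls in the set depended on single libraries and on the scaling. Without deletion replicate 2 or without WT replicate 2, 9 RNAs were lower instead of 16, and 1 was higher without deletion replicate 2 or WT replicate 3. The median was -0.14 without deletion replicate 1. With cyclic loess scaling, which removes a trend of the change with abundance, the median was 0.00, and 4 RNAs were higher and 13 lower. The balance over all genes was 1739 higher to 1486 lower, but 1307 to 1448 with cyclic loess, 1581 to 1757 with GC-corrected offsets and 2073 to 1050 with total counts.

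**Figure D1:**
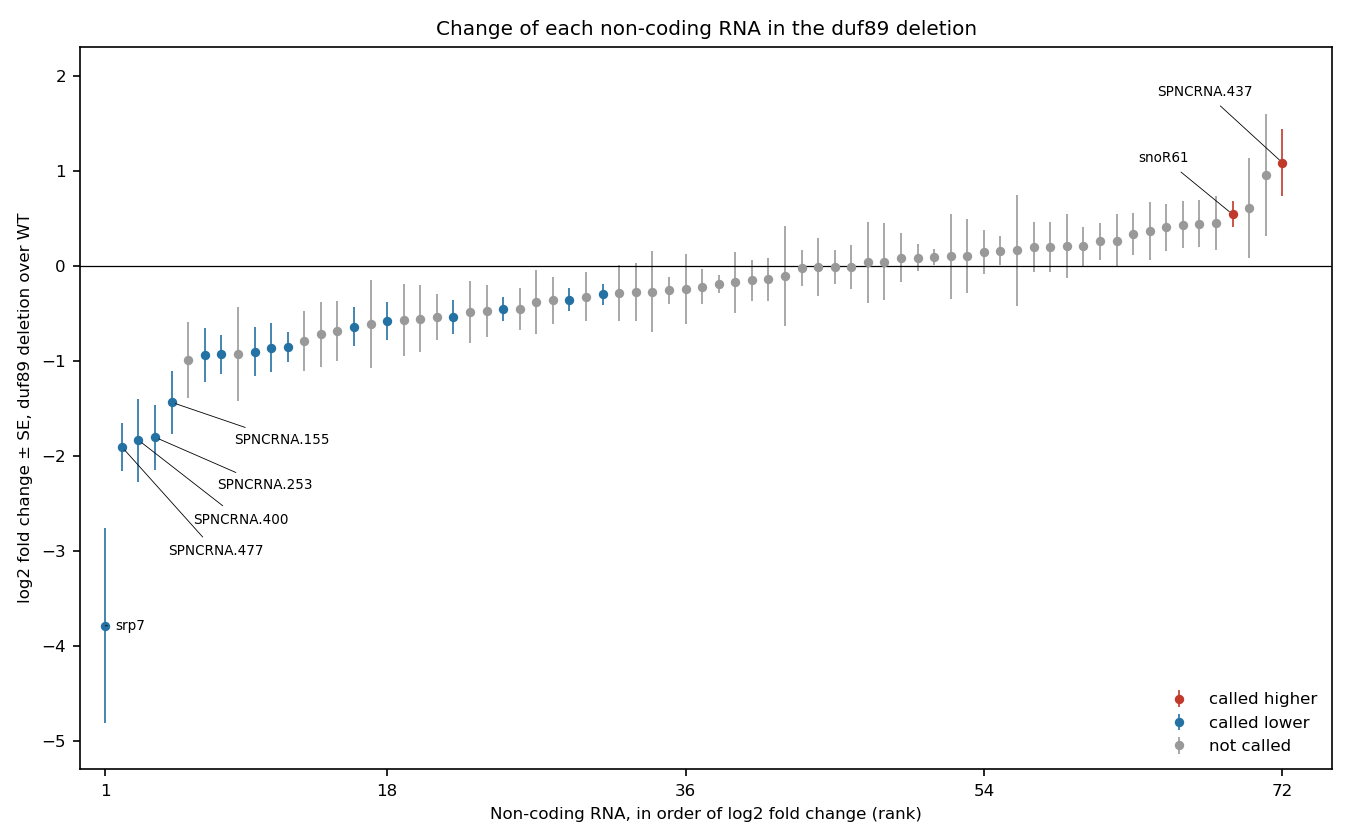
Log2 fold change (deletion over WT, ± SE) of each of the 72 non-coding RNAs in order of size, coloured by call. srp7 lies lowest at -3.79. The 16 called lower, SPNCRNA.155 among them, reach up to -0.30. The called rises are snoR61 at 0.54 and SPNCRNA.437 at 1.08.

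Among the RNAs called, 5 were lower (4 without SPNCRNA.155) and 1 was higher by at least 2-fold (8.33% of the set, against 3.04% of all tested genes). SPNCRNA.400 and SPNCRNA.253, among those 4, passed the count rule largely through WT libraries. By direction, with SPNCRNA.155 included, the 2-fold shares were 6.94% lower and 1.39% higher, against 2.48% and 0.562% of all genes. All tested genes had higher counts and smaller SEs than the set, and the 2-fold share of genes in the set's range of counts was not computed. Under the same count rule the share was 11.2% of antisense RNAs (10.7% lower, 0.503% higher). It was 6.92% of intergenic RNAs (6.05% lower, 0.865% higher), so the share of the set lay between those of the other non-coding RNAs. Libraries of the groups did not overlap for 26 of the 72 RNAs, 22 of them lower (21 without SPNCRNA.155) and 4 higher, or 36.1%, against 63.3% of all genes. By direction these were 30.6% lower and 5.56% higher, against 30.4% and 32.9% of all genes. All 18 called RNAs were among these 26. Of the 72 RNAs, 15 had an adjusted p below 0.05 in the authors' deposited table, 13 lower and 2 higher, and 14 were called in both with the same direction. SPNCRNA.155 is among the 13 and the 14.

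The structural RNAs were 7 of the 72, with 3 lower, 1 higher and 3 not called, against 24.6% lower and 28.8% higher among all genes. Most mature RNAs of this kind carry no poly(A) tail, so a library of polyadenylated RNA holds them only in part. The RNA of the signal recognition particle, srp7 (7SL), guides secretory proteins to the endoplasmic reticulum. It had 11, 12 and 6 counts in the deletion libraries, against 36, 315 and 19 in WT. All deletion libraries lay below all WT libraries, but WT replicate 2 stood far above the other WT libraries. Its log2 fold change, -3.79, passed (SE 1.03, adjusted p = 0.012), and was -1.69 without WT replicate 2 (adjusted p = 0.020). With limma-voom srp7 did not pass (-2.82, adjusted p = 0.058).

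The mrp1 RNA, the core of RNase MRP, which cuts precursors of ribosomal RNA, was lower in the deletion. Its levels were 4.29, 3.38 and 5.03 CPM in the deletion libraries, against 6.14, 9.47 and 8.68 CPM in WT. The groups did not overlap, and mrp1 fell to 4.23 ± 0.826 CPM in the deletion, against 8.10 ± 1.74 CPM in WT (SD, n = 3 each; log2 fold change -0.93, SE 0.21, adjusted p = 0.0050). It was called under each alternative tried that gave it a value. By contrast rrk1, the RNA of RNase P, which trims the 5′ ends of tRNAs, had 4.61, 4.36 and 6.17 CPM in the deletion, against 4.76, 5.20 and 5.34 CPM in WT. Those groups overlapped, and the log2 fold change, -0.01 (SE 0.18, adjusted p = 0.95), turned its sign with the scaling. The difference between mrp1 and rrk1 was itself not tested.

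Telomerase RNA, ter1, serves as the template for telomere repeats and is cut from a polyadenylated precursor. It had 12.4, 12.9 and 14.8 CPM in the deletion libraries, against 14.9, 19.1 and 17.5 CPM in WT. The highest deletion library came close to the lowest WT library without reaching it. The fall was small (log2 fold change -0.36, SE 0.12, adjusted p = 0.029). The call was lost without deletion replicate 1 or 2 or WT replicate 2 or 3 (-0.35 to -0.27, adjusted p up to 0.13), and with total counts.

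Of the small nucleolar RNAs, which guide chemical modification of ribosomal RNA, snoR61 was the one called. Its levels were 10.3, 11.2 and 14.01 CPM in the deletion libraries, against 7.97, 8.44 and 7.99 CPM in WT. It rose 1.45-fold, with no overlap between groups (log2 fold change 0.54, SE 0.14, adjusted p = 0.0091), and was called under each alternative tried. The snoRNA snR191 had 10, 6 and 12 counts in the deletion, against 21, 10 and 19 in WT. Its groups overlapped, and it did not pass (log2 fold change -0.995, SE 0.40, adjusted p = 0.059). It passed without WT replicate 2 (-1.28, adjusted p = 0.029), with GC-corrected offsets (adjusted p = 0.040) and with the replicate number as a block (adjusted p = 0.038). It shares its strand with nog2, in which RefSeq places it. sno530 measured -0.29 (SE 0.30, adjusted p = 0.43), and 0.10 with cyclic loess.

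Structural RNAs with other identifiers give a setting for these values. Of 30 tested snoRNA, snRNA and tRNA genes, 5 were called (16.7%), of which 4 were lower (13.3%) and 1 was higher (3.33%), with a median log2 fold change of 0.09. Summed over all such genes, the libraries held 81.9, 79.8 and 92.7 CPM in the deletion, against 97.2, 99.5 and 95.1 CPM in WT. The groups did not overlap in this sum. The nuclear rRNA counts were lower in every deletion library. Of the structural RNAs of the set, srp7, mrp1 and ter1 were called lower, snoR61 was called higher, and rrk1, snR191 and sno530 were not called. Of the 30 other genes 12 (40%) had a log2 fold change below 0. A relation between the rRNA counts and these RNAs was not tested.

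**Figure D2:**
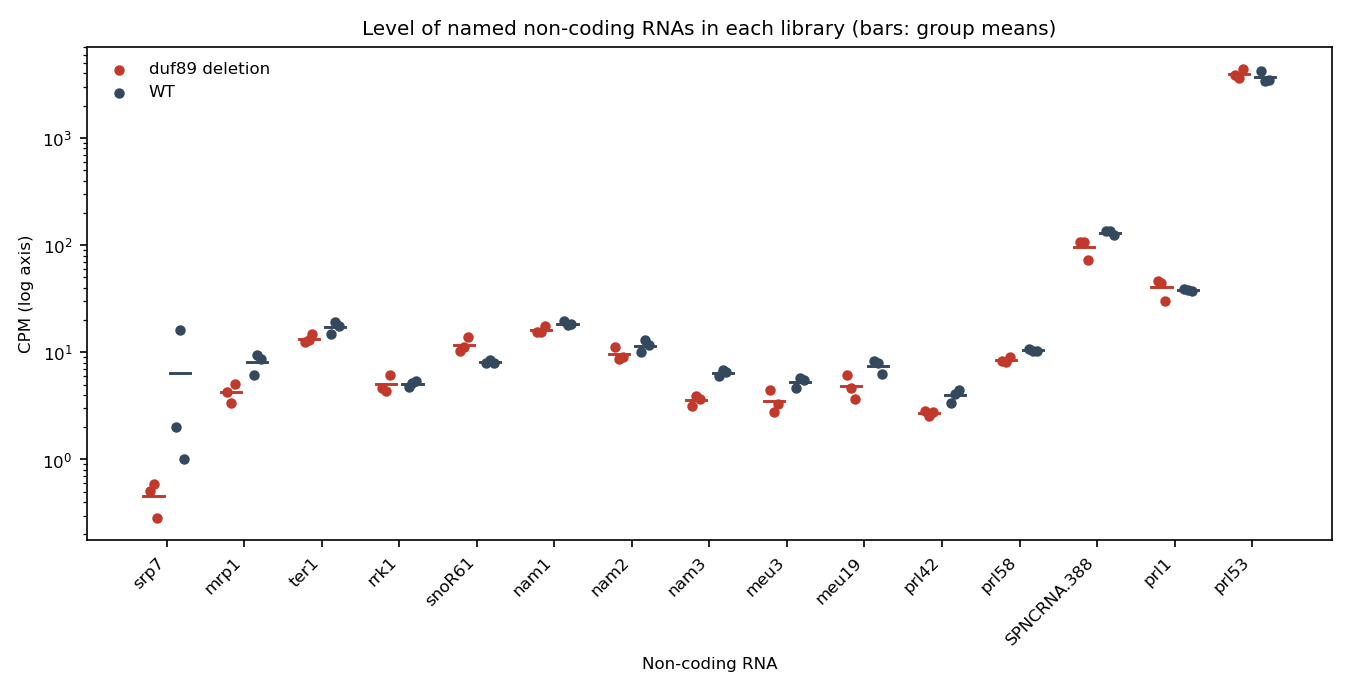
CPM on a log axis of named RNAs in each library, deletion libraries left of WT libraries, with group means as bars. The WT values of srp7 run from 1.01 to 16.2 CPM, whereas nam3 and mrp1 show groups that do not overlap and rrk1 and prl53 show groups that do.

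The RNAs associated with Mmi1 numbered 3, nam1, nam2 and nam3, of which nam3 was called. The levels of nam3 were 3.18, 3.87 and 3.66 CPM in the deletion libraries, against 5.97, 6.90 and 6.56 CPM in WT. The spread within each group was small beside the gap between them. nam3 fell to 3.57 ± 0.354 CPM in the deletion, against 6.48 ± 0.468 CPM in WT (SD, n = 3 each; log2 fold change -0.86, SE 0.16, adjusted p = 0.0021). It was called under each alternative tried that gave it a value, with log2 fold changes between -0.92 and -0.75.

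The RNA nam1 lies upstream of byr2, a kinase of the pheromone pathway, and is known for repressing it by transcription into that gene. It had 15.6, 15.4 and 17.6 CPM in the deletion libraries, against 19.5, 17.8 and 18.3 CPM in WT. The groups did not overlap, by a narrow margin, and the difference did not pass (log2 fold change -0.19, SE 0.10, adjusted p = 0.11). byr2 averaged 36.7 ± 1.52 CPM in the deletion and 34.4 ± 2.22 CPM in WT (SD, n = 3 each; log2 fold change 0.10, SE 0.08, adjusted p = 0.32; -0.16 with cyclic loess). In RefSeq nam1 overlaps mlo3 on the same strand, which makes its counts uncertain. nam2 had 11.2, 8.58 and 9.12 CPM in the deletion libraries, against 10.1, 12.97 and 11.6 CPM in WT, and its groups overlapped (log2 fold change -0.26, SE 0.14, adjusted p = 0.15). The log2 fold changes of the 3 nam RNAs were below 0 under each scaling tried that gave a value. With cyclic loess nam1 (-0.41, adjusted p = 0.0055) and nam2 (-0.39, adjusted p = 0.047) passed, as did nam1 with GC-corrected offsets (-0.29, adjusted p = 0.022).

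The meu RNAs, first found as transcripts that accumulate in meiosis, were represented by meu3 and meu19, and both were lower. meu19 had 6.09, 4.61 and 3.70 CPM in the deletion libraries, against 8.30, 7.98 and 6.24 CPM in WT. meu3 had 4.47, 2.80 and 3.32 CPM in the deletion libraries, against 4.65, 5.77 and 5.50 CPM in WT. For each RNA the groups did not overlap, with deletion replicate 1 the highest of its group and close to the lowest WT library. The log2 fold change of meu19 was -0.64 (SE 0.20, adjusted p = 0.024) and that of meu3 was -0.59 (SE 0.20, adjusted p = 0.035).

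These values are not independent of each other. The RefSeq transcripts of meu3 (744 bases) and meu19 (749 bases) share 429 stretches of 50 bases, which are 61.7% of those in meu3 and 61.3% of those in meu19, so the division of reads between the copies is uncertain. The call of meu19 was lost without deletion replicate 2 or 3 or WT replicate 1 or 2 (-0.59 to -0.46, adjusted p up to 0.093). That of meu3 was lost without deletion replicate 2 or 3 or WT replicate 2 or 3 (-0.56 to -0.41, adjusted p up to 0.14), with total counts and with cyclic loess. As a measure of the culture, mei2, which starts meiosis, fell by 0.93 on the log2 scale (SE 0.15, adjusted p = 9.9e-04), and ste11, the factor that drives sexual differentiation, measured -0.05 (SE 0.11, adjusted p = 0.72). The part of these differences in the meu values was not tested.

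The prl RNAs, named from a collection of polyadenylated RNAs without long reading frames, held 13 of the 72, and 42 of the 401 identifiers. Of the 13, 2 were lower and 0 higher, against 24.6% lower and 28.8% higher among all tested genes. Their median log2 fold change was -0.28, with a range of -0.93 to 0.95. prl42 had 2.81, 2.55 and 2.80 CPM in the deletion libraries, against 3.37, 4.07 and 4.44 CPM in WT (log2 fold change -0.54, SE 0.18, adjusted p = 0.029). prl58 had 8.30, 8.09 and 9.07 CPM in the deletion libraries, against 10.8, 10.3 and 10.3 CPM in WT (log2 fold change -0.30, SE 0.11, adjusted p = 0.041). Both showed groups that did not overlap. The call of prl58 was lost when any 1 of the 6 libraries was left out (-0.33 to -0.24, adjusted p up to 0.18). It was also lost with upper quartile scaling, with total counts, without mitochondrial and rRNA genes, and with DESeq2 (adjusted p up to 0.12). That of prl42 was lost without any library other than WT replicate 1 (-0.54 to -0.45, adjusted p up to 0.12). It was also lost with total counts, cyclic loess and DESeq2 (adjusted p up to 0.079). In the authors' deposited table the adjusted p was 0.058 for prl58 and 0.060 for prl42.

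The second most abundant prl RNA, prl1, varied within the deletion. It had 46.4, 44.2 and 30.2 CPM in the deletion libraries, against 39.1, 37.7 and 37.2 CPM in WT. Deletion replicate 3 lay below all WT libraries and the other deletion libraries lay above them. The log2 fold change was 0.08 (SE 0.14, adjusted p = 0.63), and -0.15 with cyclic loess. Without deletion replicate 3 prl1 passed, with a log2 fold change of 0.28 (adjusted p = 0.013).

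Of 45 RNAs with a systematic number only, 8 were lower, SPNCRNA.155 among them, and 1 was higher. Among all tested genes 24.6% were lower and 28.8% higher. The median log2 fold change of the 45 RNAs was -0.14. The most abundant was SPNCRNA.388, which lies on chromosome II next to mat1-Mc, a mating-type gene that had 0 counts in all 6 libraries. With the handling of multiply mapped reads not given, this 0 does not show that mat1-Mc was silent. SPNCRNA.388 had 108, 106 and 72.2 CPM in the deletion libraries, against 134, 134 and 124 CPM in WT. Deletion replicate 3 was the lowest of all, as for prl1, and the groups did not overlap. SPNCRNA.388 fell to 95.3 ± 20.03 CPM in the deletion, against 131 ± 5.99 CPM in WT (SD, n = 3 each; log2 fold change -0.46, SE 0.13, adjusted p = 0.014). The value was -0.27 without deletion replicate 3 and still passed (adjusted p = 0.0063), and the call was lost without WT replicate 2 (-0.44, adjusted p = 0.056). The mating type of the WT strain was not in the labels, and its part in this difference was not tested.

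The other 8 called RNAs of this kind, SPNCRNA.155 among them, averaged under 50 counts. They fall outside the rule by which RNAs were chosen for naming, and are named after their values were seen. SPNCRNA.477, of unknown role, had 10, 14 and 12 counts in the deletion libraries, against 38, 43 and 41 in WT. It was 3.76-fold lower (log2 fold change -1.91, SE 0.25, adjusted p = 4.5e-04). In RefSeq it overlaps trm8, a gene of tRNA methylation, on the opposite strand. Without a stated strand setting of the counting, reads of such a pair cannot be told apart.

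SPNCRNA.400 had 6, 14 and 4 counts in the deletion libraries, against 17, 30 and 31 in WT (log2 fold change -1.84, SE 0.44, adjusted p = 0.0067). SPNCRNA.253 had 14, 5 and 8 counts in the deletion libraries, against 30, 26 and 29 in WT (log2 fold change -1.81, SE 0.34, adjusted p = 0.0024). SPNCRNA.155, the one kept through WT libraries alone, had 9, 6 and 5 counts in the deletion, against 17, 16 and 16 in WT. SPNCRNA.477, SPNCRNA.400 and SPNCRNA.253 were called under each alternative tried that gave them a value. SPNCRNA.400 overlaps an intergenic RNA on the opposite strand.

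The remaining calls at low counts were less stable. SPNCRNA.431 had 12, 15 and 17 counts in the deletion, against 27, 29 and 20 in WT (log2 fold change -0.94, SE 0.28, adjusted p = 0.019), and its call was lost without deletion replicate 1 or 2 or WT replicate 1 or 2 (-0.95 to -0.77, adjusted p up to 0.089). SPNCRNA.488 had 18, 17 and 25 counts in the deletion, against 28, 39 and 34 in WT (log2 fold change -0.91, SE 0.26, adjusted p = 0.015), and was not called without deletion replicate 1 or 2 or WT replicate 2 (-0.81 to -0.78, adjusted p up to 0.067). SPNCRNA.525 had 23, 21 and 16 counts in the deletion, against 29, 30 and 39 in WT (log2 fold change -0.87, SE 0.26, adjusted p = 0.018), and was not called without deletion replicate 3 or WT replicate 3 (-0.72 to -0.71, adjusted p up to 0.073). These 3 calls were also lost with DESeq2 and with cyclic loess. SPNCRNA.437 was the one rise, with 36, 42 and 38 counts in the deletion, against 7, 25 and 17 in WT. Its log2 fold change was 1.08 (SE 0.35, adjusted p = 0.026), and the call was lost without deletion replicate 2 or 3 or WT replicate 1 or 3 (0.74 to 1.126, adjusted p up to 0.067).

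RNAs outside these groups showed no call. The transcript nc-tco1 (SPNCRNA.600), an RNA from the tco1 locus that yields no protein, had 2.58, 2.89 and 1.99 CPM in the deletion libraries, against 4.204, 2.93 and 3.12 CPM in WT. Its groups barely separated (log2 fold change -0.46, SE 0.22, adjusted p = 0.11), and it shares its strand with tco1 itself. SPNCRNA.359 was the one kept of 22 centromeric identifiers. It had 18, 12 and 14 counts in the deletion, against 14, 8 and 12 in WT (log2 fold change 0.20, SE 0.34, adjusted p = 0.63), with 70.0% of its 50-base stretches repeated in the genome. SPNCRNA.117, named after its values were seen, lies next to ecl3, a gene near pho84 that rose (log2 fold change 2.08, SE 0.16, adjusted p = 2.1e-05). Its own counts were 9, 8 and 20 in the deletion, against 17, 14 and 9 in WT, and the groups overlapped (log2 fold change -0.28, SE 0.43, adjusted p = 0.61; 0.15 with cyclic loess).

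The count rule left out some RNAs with known roles. Just inside it, with 10 as the third-highest count, were prl4 (4, 12 and 6 counts in the deletion, against 8, 20 and 10 in WT), SPNCRNA.450 (4, 12 and 5 in the deletion, against 8, 11 and 10 in WT) and prl50 (7, 5 and 28 in the deletion, against 9, 13 and 10 in WT). Just outside it, with 9, were SPNCRNA.412 (5, 3 and 7 in the deletion, against 10, 10 and 9 in WT), SPNCRNA.439 (16, 11 and 9 in the deletion, against 8, 9 and 4 in WT) and sme2, the meiRNA that sequesters Mmi1 in meiosis. sme2 had 9, 5 and 4 counts in the deletion, against 9, 14 and 6 in WT. SPNCRNA.446, which lies near pho1, had 0, 0 and 0 counts in the deletion, against 1, 2 and 0 in WT. nam5, nam6, meu11, meu20 and the centromeric boundary RNA IRC1-R were at 0 in all 6 libraries, and IRC1-L had 1 count in 1 library of each group. By counting error alone, a 0 allows up to 3 counts per library. The handling of multiply mapped reads is not given, so a 0 may also stand for reads left out of the counting. The non-coding RNAs that repress pho1 and tgp1 were not analysed here.

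Per length, the order of levels differed from that of the counts. prl53 led with 2134 CPM per kilobase in the deletion and 2007 in WT, followed by SPNCRNA.388 with 60.5 in the deletion and 83.0 in WT. snoR61 had 37.3 CPM per kilobase in the deletion and 25.7 in WT, and prl58 had 19.0 in the deletion and 23.5 in WT. mrp1, nam1 and ter1 lay close together in the deletion, at 10.6, 10.9 and 9.87 CPM per kilobase, whereas in WT mrp1 stood above the others, at 20.3, 12.4 and 12.7. These values use RefSeq lengths, so prl1 and nam2, which had no match, are left out.

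The set was set beside the other annotated non-coding RNAs under the same count rule. Among 596 tested antisense RNAs 41.1% were called, 32% lower and 9.06% higher, with a median log2 fold change of -0.26. Among 347 tested intergenic RNAs 29.4% were called, 21% lower and 8.36% higher, with a median of -0.11. Protein-coding genes had 57.1% called, 23.9% lower and 33.2% higher, with a median of 0.03. The median of the 72 RNAs, -0.24, thus lay between those of the antisense and the intergenic RNAs, and no difference between the classes was tested. The antisense RNAs had a median of 92.7 counts and the intergenic RNAs of 74.2, against 26.7 in the set, and the part of this difference in the shares called was not tested.

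**Figure D3:**
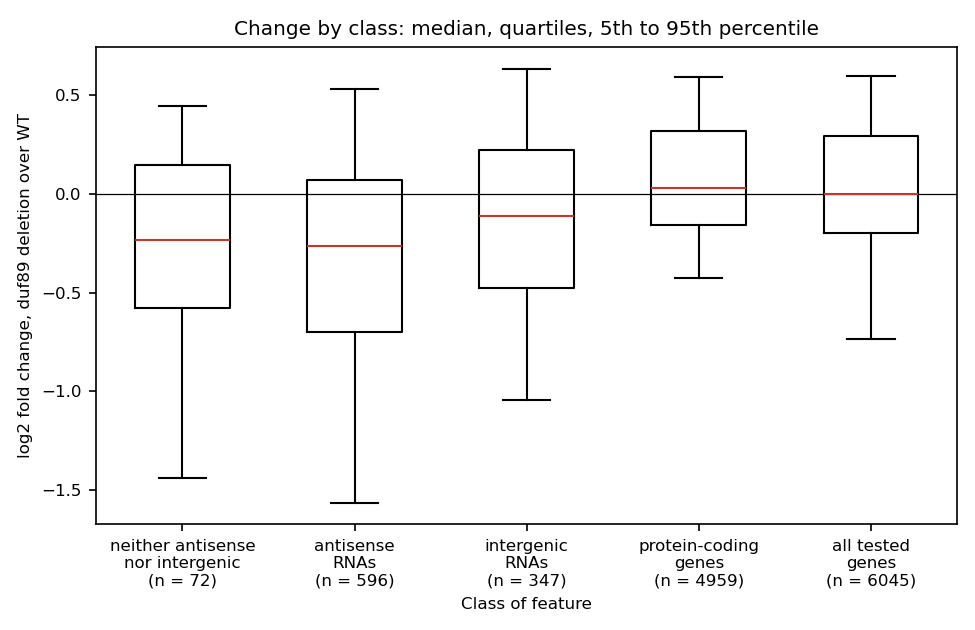
Log2 fold change (deletion over WT) by class of feature, with median, quartiles and the 5th to 95th percentile. The 3 classes of non-coding RNA have medians of -0.24, -0.26 and -0.11, below the 0.03 of protein-coding genes.

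The RNAs also shared features that the rule did not use. Of the 72, 68 were matched to RefSeq (assembly ASM294v3), with 32 on chromosome I, 21 on II and 15 on III, and calls on all of them. Their median length was 561 bases, against 1620 for all tested genes, and their median GC content was 31.9%, against 37.0%. Another RefSeq feature on the opposite strand overlapped 44 of the 68, and 13 of the 18 called RNAs, SPNCRNA.155 among them. Another feature that was itself counted overlapped 18 of the 68 on the opposite strand. A feature on the same strand overlapped 6. With the strand setting of the counting not given, these overlaps limit what the counts of single RNAs show.

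The core of the motif that Mmi1 binds, TNAAAC on the transcript strand, occurred 2.37 times per kilobase in the 68 transcripts, against 1.80 over 6846 matched genes. It occurred 2.43 times per kilobase in the matched identifiers that missed the count rule, 2.01 in intergenic RNAs and 1.92 in antisense RNAs. It was present at least once in 75% of these RNAs and in 84.8% of all genes, which are longer. The motif is rich in A and T, and the median GC content was 31.9% in the 68 transcripts and 37.0% over the matched genes. The part of base composition in these rates was not tested. The 16 RNAs called lower held 2.74 per kilobase and the RNAs not called held 2.21. SPNCRNA.155 is among those 16, and the rate without it was not computed. nam1 held 9 matches, SPNCRNA.388 held 7, and nam3 held 4. In the 300 bases around the RefSeq start (250 before and 50 after), TATAAA was found on either strand for 36 RNAs (52.9%), against 47.5% of all genes. The HomolD box CAGTCAC was found for 5 (7.35%), against 4.59%. A match of letters is a description and not a binding site.

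The genes downstream of the non-coding RNAs were read next, since transcription of such RNAs can act on the gene that follows. A protein-coding gene lay next downstream on the same strand for 33 RNAs. Of these genes 7 were higher and 3 lower, or 30.3% called against 53.3% of all genes, and their median log2 fold change was -0.01. The sign of the gene matched that of the RNA in 21 of the 33 pairs. Across the 33 pairs Spearman's rho was 0.53 and Pearson's r 0.46, as a description of pairs measured in the same libraries. Both include the pair of SPNCRNA.155 and mcp7, and neither was computed without it. Over the 25 pairs whose RNA was not called Spearman's rho was 0.20.

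Below the 6 RNAs called lower in such pairs, 2 genes were lower and 0 higher, and the same counts held for the 5 pairs without SPNCRNA.155. grx4, a monothiol glutaredoxin of iron regulation that follows SPNCRNA.431, averaged 146 ± 5.55 CPM in the deletion and 174 ± 4.45 CPM in WT (SD, n = 3 each; log2 fold change -0.25, SE 0.05, adjusted p = 0.0023). cdc4, the essential myosin light chain of the cytokinetic ring, follows SPNCRNA.525 and averaged 347 ± 7.28 CPM in the deletion and 402 ± 2.74 CPM in WT (log2 fold change -0.21, SE 0.04, adjusted p = 0.0022). The call of cdc4 was lost with cyclic loess (-0.07, adjusted p = 0.12). The other genes in these pairs were not called: pvg5, of galactose residue pyruvylation, at -0.22 (adjusted p = 0.065), SPAC16A10.03c after ter1 at -0.10 (adjusted p = 0.24), SPBC365.16 at -0.04 (adjusted p = 0.62), and the meiotic gene mcp7, after SPNCRNA.155, at -0.53 (adjusted p = 0.26). pvg5 passed with cyclic loess (-0.48, adjusted p = 0.0052), with GC-corrected offsets (-0.28, adjusted p = 0.021) and with the replicate number as a block (adjusted p = 0.025). SPAC16A10.03c passed with cyclic loess (-0.22, adjusted p = 0.029).

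Below the called rises, cwf3 follows snoR61 and codes for a splicing factor of the Prp19 complex. It had 1269, 1127 and 1340 counts in the deletion libraries, against 655, 846 and 823 in WT. All deletion libraries lay above all WT libraries, and cwf3 rose by 0.52 on the log2 scale (SE 0.09, adjusted p = 0.0015). sec13, of COPII vesicle coats, follows SPNCRNA.437 and measured 0.11 (SE 0.05, adjusted p = 0.079). sec13 passed under 6 alternatives, among them total counts (0.18, adjusted p = 0.0093), cyclic loess (0.21, adjusted p = 0.0052) and the fit without deletion replicate 2 (0.17, adjusted p = 0.027). vps20, an ESCRT-III gene that lies upstream of SPNCRNA.437 on the opposite strand, rose (0.51, SE 0.09, adjusted p = 0.0019). Downstream of prl53, SPAC27E2.03c, an Obg-like ATPase gene, was lower (-0.15, SE 0.04, adjusted p = 0.016). Its call was lost without deletion replicate 1 or 2 or WT replicate 2 (-0.14 to -0.09), with total counts, and with cyclic loess (0.01).

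**Figure D4:**
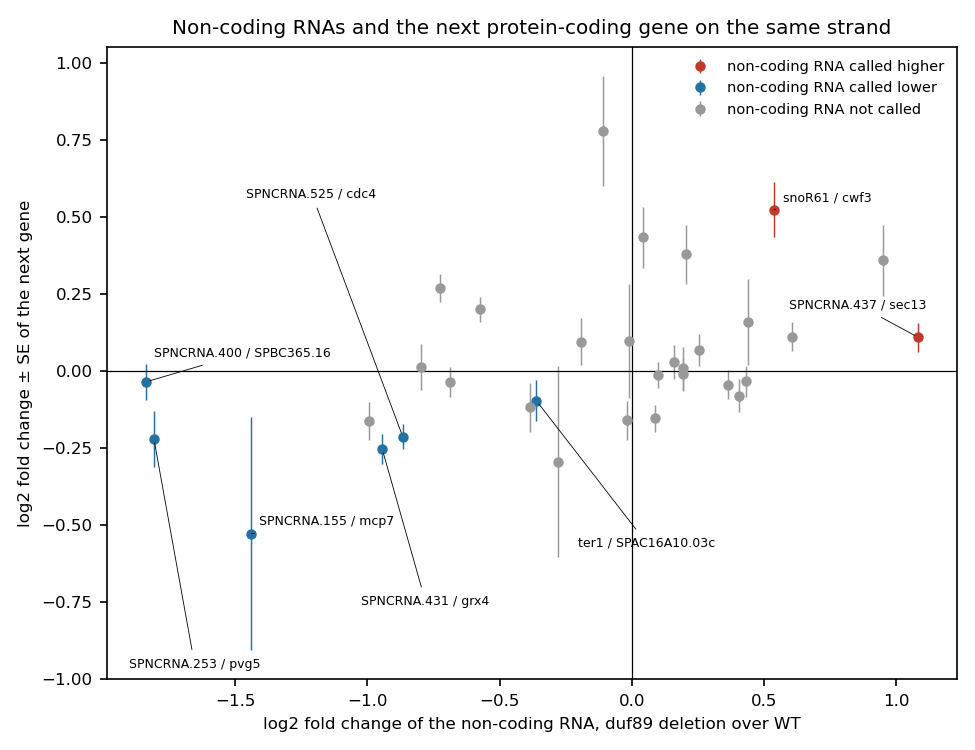
Log2 fold change of the next protein-coding gene on the same strand (± SE) against that of the non-coding RNA for 33 pairs. The 6 pairs whose RNA was called lower lie below 0 for the gene, from -0.53 (mcp7, after SPNCRNA.155) to -0.04, or from -0.25 without that pair, and cwf3 beside snoR61 lies at 0.52.

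Divergent neighbours were read in the same way. A protein-coding gene lay upstream on the opposite strand of 42 RNAs, and 9 of these genes were higher and 12 lower, or 50% called, near the 53.3% of all genes. The signs matched in 17 of the 42 pairs, and Spearman's rho was 0.05. Whether the downstream and the divergent pairs differ was not tested.

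The genes that act on such RNAs were read from a list that was chosen with earlier results of these data known. Of 26 genes of RNA elimination, transcript cleavage and termination, and chromatin, all tested, 13 were higher, 3 lower and 10 not called. These are 61.5% called, 50% higher and 11.5% lower, against 53.3%, 28.8% and 24.6% of all genes, with a median log2 fold change of 0.12 (all genes 0.00). Among protein-coding genes the shares were 57.1%, 33.2% and 23.9%. With cyclic loess 9 genes of the list were higher. In the elimination group 7 of 10 were higher and 1 lower. The nuclear exosome nuclease gene rrp6 averaged 136 ± 5.83 CPM in the deletion and 88.7 ± 14.6 CPM in WT (SD, n = 3 each; log2 fold change 0.62, SE 0.10, adjusted p = 0.0012). The helicase gene mtl1 (0.47, SE 0.07), red1 (0.42, SE 0.11), rmn1 (0.33, SE 0.07) and the poly(A) polymerase gene pla1 (0.27, SE 0.06) rose too.

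The Mmi1 gene itself, mmi1, had 2829, 2636 and 2417 counts in the deletion, against 2580, 2714 and 2705 in WT. After scaling the groups did not overlap, and mmi1 fell by 0.18 on the log2 scale (SE 0.06, adjusted p = 0.021). The call was lost without deletion replicate 3 or WT replicate 2 (-0.19 to -0.10, adjusted p up to 0.077), and with total counts.

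In the cleavage and termination group 4 of 12 were higher and 1 lower, or 41.7% called, below the 53.3% of all genes. ssu72, a phosphatase of the RNA polymerase II tail, averaged 22.3 ± 2.04 CPM in the deletion and 11.7 ± 0.985 CPM in WT (SD, n = 3 each; log2 fold change 0.93, SE 0.11, adjusted p = 2.3e-04). The cleavage factor genes cft2 (0.53, SE 0.10) and ysh1 (0.33, SE 0.07) and the termination factor gene rhn1 (0.49, SE 0.09) rose, and the phosphatase gene dis2 fell (-0.38, SE 0.05). The call of rhn1 was lost with cyclic loess (0.23, adjusted p = 0.068). seb1 (0.04), pcf11 (-0.15, adjusted p = 0.069) and dhp1 (-0.09) did not pass.

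In the chromatin and RNAi group set1, the histone H3 lysine methyltransferase of active genes, rose (0.30, SE 0.07), as did clr4, that of heterochromatin (0.29, SE 0.09). ago1, the Argonaute gene, fell (-0.21, SE 0.05), and dcr1 measured 0.03 (adjusted p = 0.73). The call of clr4 was lost without WT replicate 2 (0.29, adjusted p = 0.060) and with cyclic loess, which also ended that of set1. The call of ago1 was lost without deletion replicate 1 or 2 (-0.17 to -0.16, adjusted p up to 0.084) and with total counts.

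**Figure D5:**
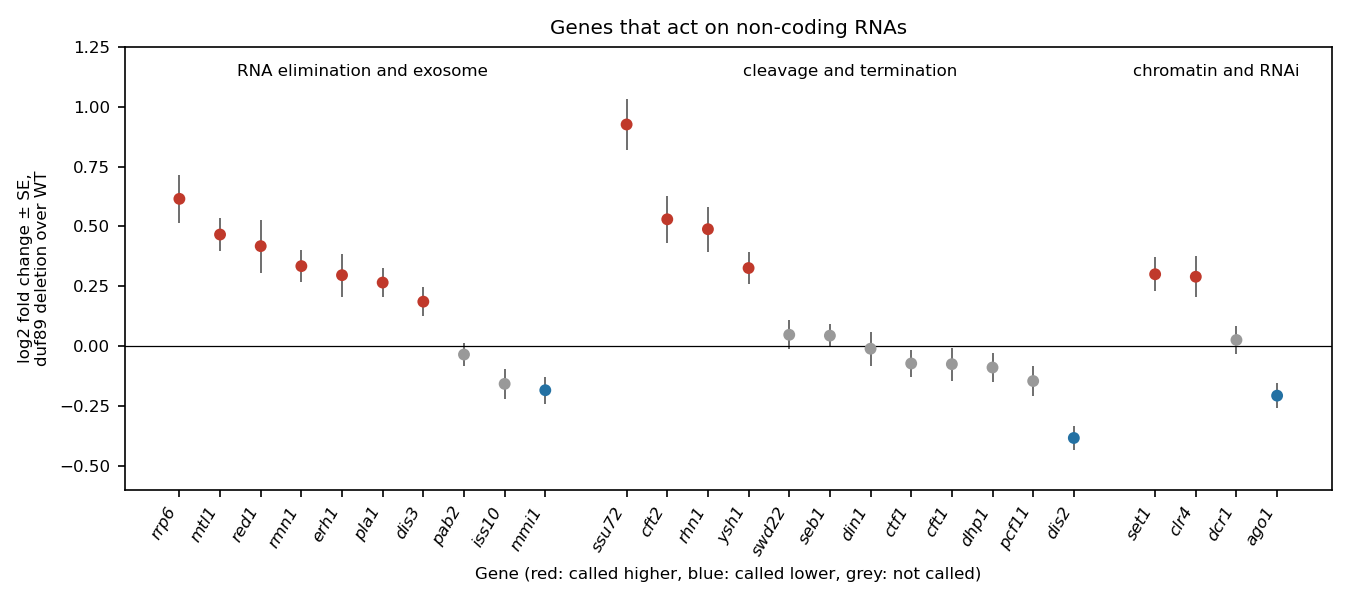
Log2 fold change (deletion over WT, ± SE) of 26 genes that act on non-coding RNAs, in 3 groups, coloured by call. ssu72 at 0.93 and rrp6 at 0.62 are highest, and dis2 at -0.38 is lowest.

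The culture's state differed between the groups in some markers. Of the stress genes, hsp9 (-1.68, SE 0.05), ctt1 (-0.81, SE 0.06) and tps1 (-0.81, SE 0.08) were lower in the deletion, and fbp1, which is induced without glucose, did not pass (0.29, SE 0.14, adjusted p = 0.11). pho1, the acid phosphatase gene of the phosphate response, was higher (1.75, SE 0.07). The part of these differences in the levels of the non-coding RNAs was not tested.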

How the data were processed

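Polyadenylated RNA was measured in 3 duf89 deletion and 3 WT libraries. The deposited counts are whole reads per gene, on build ASM294v2, per the submitters' processing notes, which also list HTSeq 0.10.0, HISAT2 2.1.0, DESeq, DESeq2 and SAMtools without roles. The sources used here do not give the strand setting, the handling of multiply mapped reads or filters. The authors' comparison stands in a deposited table with a log2 fold change and its SE, a Wald score, p-values and mean normalized signal per group, per the file headers. It was used for product descriptions and beside the refit.

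The 6987 lines gave 6986 genes, as 1 identifier on 2 lines was summed. RefSeq (ASM294v3) matched 6846 (98.0%) and gave names, neighbours, lengths, GC content, repeated stretches and motif counts; as builds differ, no coordinates or sequences are printed. edgeR 4.0.16 in R 4.3.3 was fitted to all counts (minimum count of 10 in filterByExpr, TMM scaling, quasi-likelihood F test on group, Benjamini-Hochberg over 6045 genes, calls at an adjusted p below 0.05), and tested on simulated data. SEs are approximate, from the log2 fold change divided by the root of F. Replicates were not duplicates (chi-square per degree of freedom 5.95 to 15.9). Intervals and floors cover counting error only.

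The RNAs and lists were chosen with earlier results of these data known. Named were RNAs with a name or stated function; called RNAs with a mean of at least 50 counts and separated libraries; the 5 most abundant; neighbours of phosphate genes; genes next downstream; and RNAs beside the count threshold. Others were named after their values were seen. Alternatives were other scalings, filters, DESeq2 1.42.0, limma-voom (limma 3.58.1), an adjusted p below 0.01, libraries left out and the replicate number as a block.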

Additional observations from a re-analysis of the deposited data

How the results depend on the processing

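Of 17 called RNAs followed, 6 (SPNCRNA.477, SPNCRNA.400, SPNCRNA.253, mrp1, nam3 and snoR61) were called under every alternative that gave a value, 11 were lost under at least 1, and 0 changed sign; the causes were not tested except where fewer genes or libraries entered. SPNCRNA.400 and SPNCRNA.253, among the 6, passed the count rule largely through WT libraries. Restricted to a mean of at least 50 counts (24 RNAs), 1 was higher and 9 lower. With at least 10 CPM in 3 libraries (7 RNAs tested), 1 was higher and 2 lower. At an adjusted p below 0.01, 1 was higher and 6 lower, SPNCRNA.155 among the 6. At that level 2084 of all genes were called (1152 higher, 932 lower). With cyclic loess 4 were higher and the median was 0.00028. With total counts the median was -0.17.

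Leaving out 1 library each gave 9 to 14 lower, 1 to 2 higher and a median of -0.28 to -0.14. All genes called ranged from 2401 to 3147 (1324 to 1763 higher, 1077 to 1384 lower). The RNA decay and termination list had 11 to 13 higher and 2 to 4 lower. duf89 ranged from -1.98 to -1.57. That list had 5 lower with GC-corrected offsets and 1 with total counts, against 3 as reported. With cyclic loess 9 of the list were higher, against 13 as reported.

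Replicate numbers did not pair the libraries (correlations of -0.13, -0.17 and 0.26). With them as a replicate block 2 RNAs were higher and 17 lower, 3533 genes were called and 5 of the list were lower.

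Signs turned for these values. With cyclic loess sno530 measured 0.10, SPNCRNA.117 0.15, prl1 -0.15, byr2 -0.16 and the called SPAC27E2.03c 0.0094. rrk1 measured 0.0032 with the upper quartile, 0.055 with total counts, 0.042 with GC-corrected offsets, 0.014 without mitochondrial and rRNA genes, and between 0.00063 and 0.11 without deletion replicate 1 (0.083) or 2 or WT replicate 2 or 3 (0.021). SPNCRNA.359 ranged from -0.015 to 0.41 and SPBC365.16 from -0.079 to 0.027 with 1 library left out, and SPBC365.16 measured 0.032 with total counts.

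The median count was 26.7 per library, and the median SE of a log2 fold change was 0.26, against 0.08 for all genes.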
